A study of Mus musculus with 8 samples.

Results

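The 32 genes described here encode enzymes that build purine and pyrimidine nucleotides, move one-carbon units to them, or recycle bases and nucleosides. They form a list of gene names by pathway, drawn up with earlier results of these data known. All 32 were found among 14455 genes whose values could be assigned, out of 33949 names in the authors' result tables. The RNA came from mouse Th1 cells, interferon gamma producing helper cells, made in culture from C57BL/6 CD4 T cells. In all 4 groups the cells had been stimulated on plates with antibodies to CD3 and CD28 while IL-4 was blocked and IL-12 was added. In the first experiment, 2 libraries from cells transduced with a short hairpin RNA against Pcbp1 were set against 2 from cells with a scrambled hairpin, as total RNA after removal of ribosomal RNA. In the second, 2 libraries from cells given CPX (ciclopirox olamine, an iron chelator) were set against 2 from cells given DMSO, as polyA RNA per the labels. The design asks what loss of cell iron and loss of PCBP1, which binds RNA and also acts as an iron chaperone, do to the transcriptome. The sources used here do not give the number of hairpins, the CPX dose, the time of treatment, or the sex and age of the mice.

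Purines are assembled step by step on a ribose phosphate until IMP is reached, and IMP is then turned into AMP or GMP. Pyrimidines are made as a free ring, joined to the ribose phosphate and converted to UMP, UTP and CTP, while thymidylate is made from dUMP with a folate cofactor. Serine supplies the one-carbon units through parallel sets of folate enzymes in the cytosol and in mitochondria. Resting T cells rely largely on salvage, and activated T cells raise synthesis before they divide.

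The labelled target checked the hairpin groups. Pcbp1 had 15.1 and 16.1 RPM (reads scaled to 1e+06 per library) in the Pcbp1 hairpin libraries, against 44.0 and 51.7 RPM in the scrambled hairpin libraries (log2 fold change -1.59, SE 0.11, limma adjusted p = 2.33e-05), so part of the transcript remained. RPM here is a deposited value divided by its library's total, and the totals were 14174293 to 15518303 in the hairpin libraries and 19193784 to 19662145 in the CPX and DMSO libraries. The mitochondrial ribosomal RNA mt-Rnr2 took 17.6% to 19.9% of the hairpin libraries and 0.034% to 0.204% of the others, so levels were compared only within an experiment. The T cell and Th1 markers Cd3e, Cd3d, Cd4, Tbx21 and Ifng were all present, but their levels differed between the groups compared. With CPX, Ifng (-2.96) and Cd3e (-1.35) were called lower and Cd3d (0.80) higher (limma, adjusted p under 0.05). Cd4 and Tbx21 did not pass with CPX. With the Pcbp1 hairpin, Ifng and Cd3d (-1.07 each) were called lower, and Cd3e (0.97), Cd4 (0.99) and Tbx21 (0.42) higher. Ifng had 1106 and 4983 RPM with CPX, against 14026 and 23804 RPM with DMSO. The 2 CD8 T cell markers, Cd8a and Cd8b1, summed to 91.9 and 11.6 RPM in the Pcbp1 hairpin libraries, against 90.5 and 11.9 RPM in the scrambled hairpin libraries, so replicate 1 of each group stood apart in the same way. The myeloid markers Itgam and Emr1 summed to 53.2 and 31.0 RPM with CPX, against 1.63 and 1.69 RPM with DMSO. Both were called higher with CPX (limma, 4.08, adjusted p = 0.00275 for Itgam and 3.26, adjusted p = 0.00248 for Emr1). The other listed myeloid markers, Lyz2 and Csf1r, stayed under 10 deposited units in every library. Over all 15 listed markers of other cell types, of which 6 were measured, the sums were 93.6 and 13.2 RPM with the Pcbp1 hairpin, 91.2 and 12.7 RPM with the scrambled hairpin, 62.7 and 39.3 RPM with CPX, and 10.4 and 10.7 RPM with DMSO. The markers of B cells (Ms4a1), NK cells (Ncr1, Klrb1c), red cells (Hbb-b1, Hba-a1) and fibroblasts (Col1a2) also stayed under 10 units in every library. Other markers of those lists were low but higher with CPX (limma): the fibroblast marker Col1a1 had 4.32 and 3.12 RPM with CPX, against 0.203 and 0.460 RPM with DMSO (2.35, adjusted p = 0.00448), and the B cell marker Cd79a had 1.04 and 1.51 RPM with CPX, against 0.509 and 0.307 RPM with DMSO (0.96, adjusted p = 0.0414). The part of other cells in the results was not tested. In bulk RNA, fewer cells of a type and less RNA per cell cannot be told apart. The labels do not say whether replicates were separate cultures or animals, so p-values measure the spread between these libraries only.

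CPX lowered much of the set, and the Pcbp1 hairpin raised part of it. With CPX, 19 of the 32 genes fell, 0 rose and 13 did not pass the test (limma, Benjamini-Hochberg adjusted p under 0.05 over all genes tested), where 44.7% of 11466 genes tested were called, 24.8% lower and 19.9% higher. Of the 19, 18 fell at least 2-fold, a change called for 22.1% of all genes tested. The median log2 fold change was -1.21 over the 32 genes and -0.12 over all genes. With the Pcbp1 hairpin, 13 rose, 7 fell and 12 did not pass, where 56.2% of 11575 genes were called, 34.6% higher and 21.6% lower. The median was 0.17 over the 32 genes and 0.10 over all genes, so the set as a whole lay close to the other genes in that experiment. The numbers called higher and lower over all genes were 4003 and 2502, but 3336 and 3154 with TMM factors and 3080 and 3440 after quantile normalization. Among the 32 the counts were 13 higher and 8 lower with TMM factors, and 11 higher and 8 lower after quantile normalization. The RPM values of the groups did not overlap for 26 of the 32 genes with CPX (76.3% of all genes) and for 27 of the 32 with the hairpin (78.5% of all genes).

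**Figure D1:**
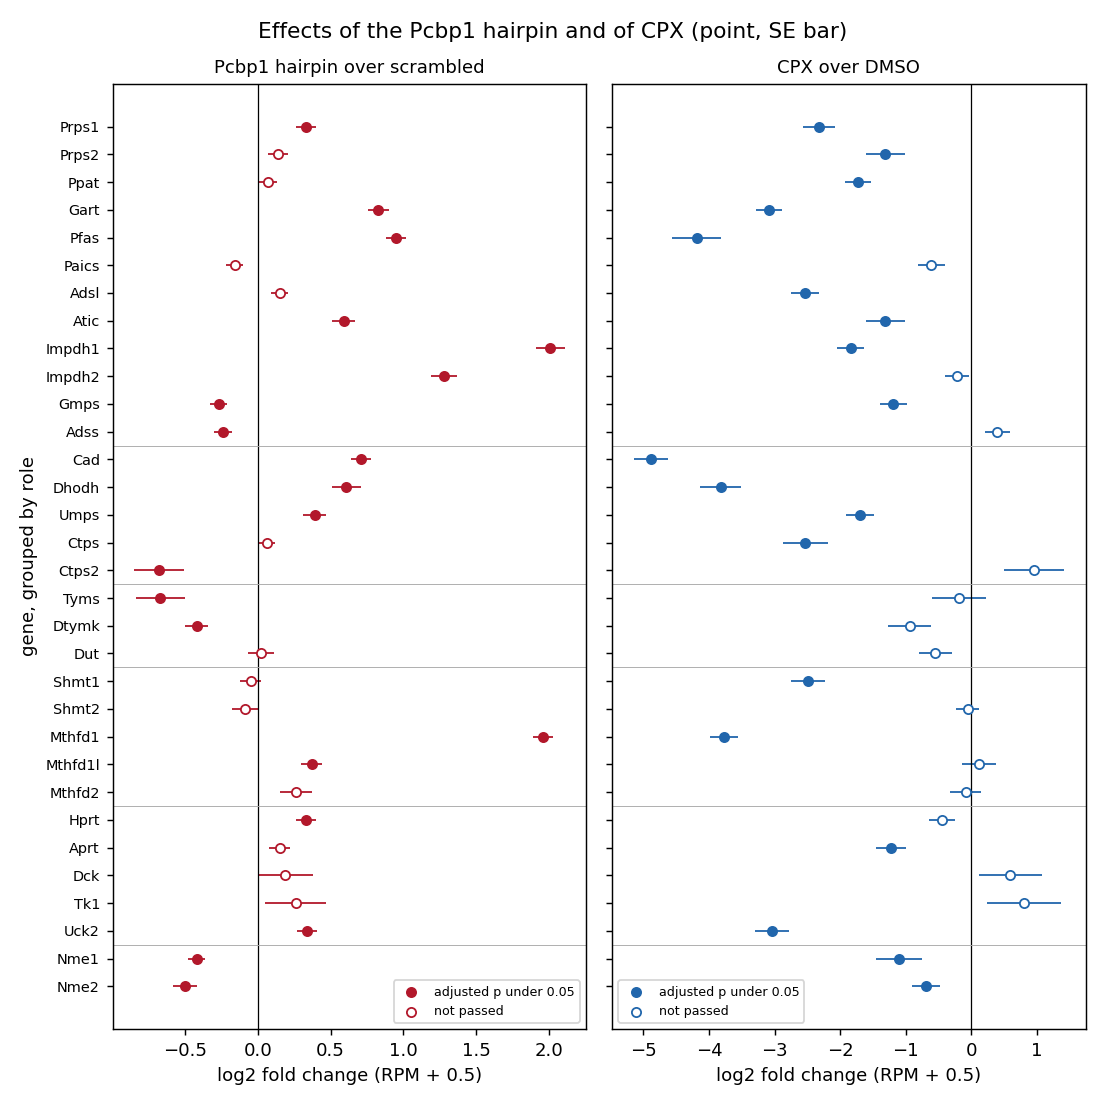
Log2 fold changes with standard errors for the 32 genes, for the Pcbp1 hairpin against the scrambled hairpin and for CPX against DMSO, grouped by role. Filled points passed an adjusted p under 0.05; the CPX values run from -4.89 (Cad) to 0.95 (Ctps2) and the hairpin values from -0.68 (Ctps2) to 2.01 (Impdh1).

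The experiments called the genes in 6 patterns. Prps1, Gart, Pfas, Atic, Impdh1, Cad, Dhodh, Umps, Mthfd1 and Uck2 (10 genes) rose with the Pcbp1 hairpin and fell with CPX, a pair of calls made for 11.9% of 10430 genes tested in both. Hprt, Impdh2 and Mthfd1l (3 genes) rose with the hairpin and did not pass with CPX. Adsl, Aprt, Ctps, Ppat, Prps2 and Shmt1 (6 genes) fell with CPX and did not pass with the hairpin. Gmps, Nme1 and Nme2 (3 genes) fell in both, and Adss, Ctps2, Dtymk and Tyms (4 genes) fell with the hairpin and did not pass with CPX. Dck, Dut, Mthfd2, Paics, Shmt2 and Tk1 (6 genes) passed in neither. Except for the first pattern, shares over all genes were not computed, so the other counts only sort the set. A test of the difference itself, the hairpin effect minus the CPX effect over all 8 libraries, called 19 of the 32 higher and 2 lower (limma), where 51.3% of 10430 genes were called, 35.2% higher and 16.1% lower. The 2 were Adss (-0.63, SE 0.17, adjusted p = 0.0161) and Ctps2 (-1.63, SE 0.53, adjusted p = 0.0352), and neither was called when any 1 hairpin library was left out. After quantile normalization the split over all genes was 2782 higher and 2580 lower, against 3671 and 1675 otherwise. The median of that difference was 1.42 over the 32 genes and 0.40 over all genes. The experiments differ in RNA selection, and its part in this difference cannot be told apart from that of the treatments. The fit of the difference used 1 shared estimate of the spread for both experiments. Replicates were less alike with CPX (median absolute log2 difference 0.43 over all genes) than with the Pcbp1 (0.12) or scrambled hairpin (0.13). The SE of the difference was smaller than that of the CPX effect alone for Gart (0.17, against 0.20) and Mthfd1 (0.18, against 0.22). SEs and p-values of the difference therefore do not carry each experiment's own spread.

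**Figure D2:**
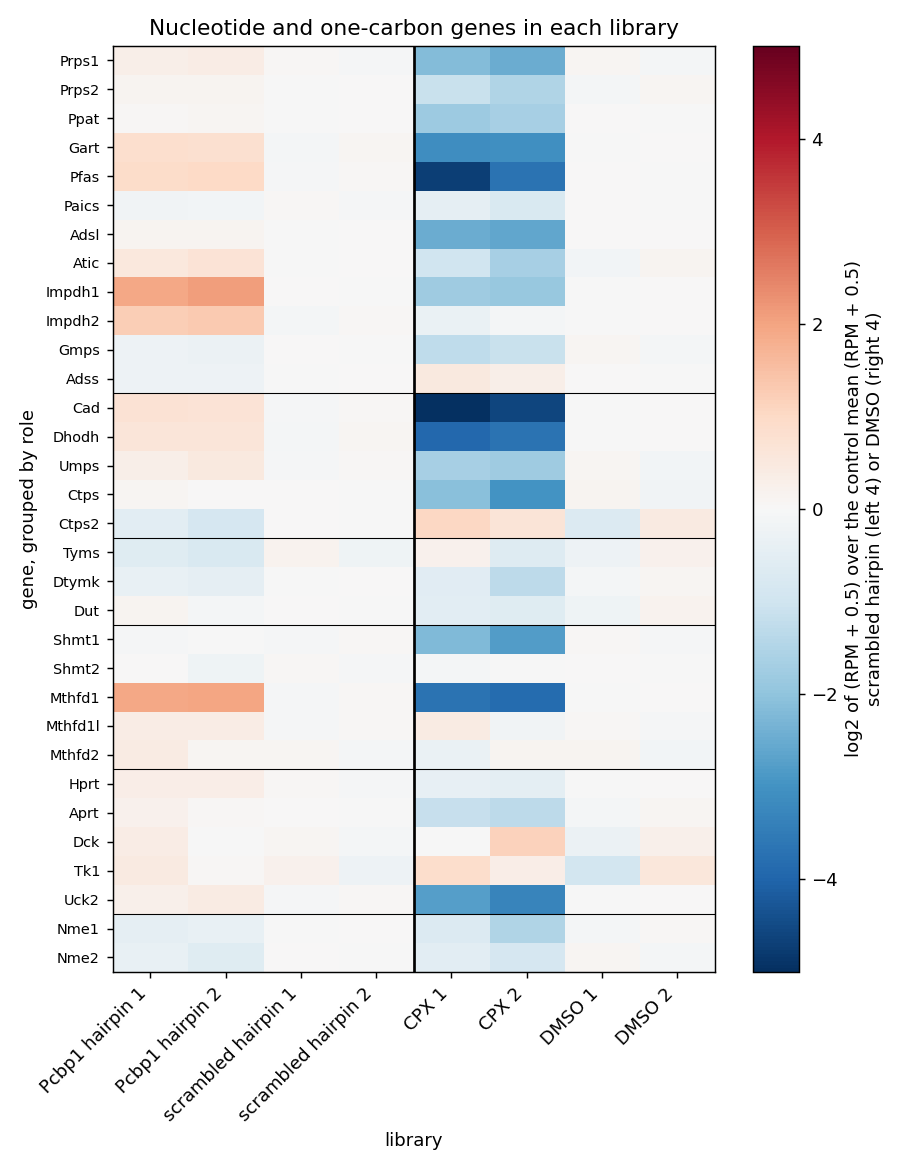
Log2 ratio of each library to the mean of its own control libraries for the 32 genes, grouped by role, on a colour scale from -5 to 5. Both CPX libraries are low for most purine and pyrimidine genes, with Cad, Pfas, Dhodh and Mthfd1 the deepest, and both Pcbp1 hairpin libraries are high for Impdh1 and Mthfd1.

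The first steps of purine synthesis fell with CPX. Prps1, which makes the ribose phosphate donor PRPP, had 25.7 and 21.0 RPM with CPX, against 127 and 110.1 RPM with DMSO (log2 fold change -2.32, SE 0.24, limma adjusted p = 0.00292). Its paralog Prps2 had 16.6 and 12.7 RPM with CPX, against 34.2 and 39.6 RPM with DMSO (-1.31, SE 0.29, adjusted p = 0.0164). Ppat, the committed step, whose mammalian enzyme carries an iron-sulfur cluster, had 57.6 and 63.9 RPM with CPX, against 207 and 199.5 RPM with DMSO (-1.73, SE 0.20, adjusted p = 0.00325). In each case both CPX libraries lay under both DMSO libraries, where the groups did not overlap for 76.3% of all genes tested. In the hairpin experiment only Prps1 of these 3 passed, with 81.8 and 86.9 RPM with the Pcbp1 hairpin, against 69.4 and 64.5 RPM with the scrambled hairpin (0.33, SE 0.07, adjusted p = 0.00663). That call was lost after quantile normalization (0.14, adjusted p = 0.143). Prps2 (0.14, adjusted p = 0.129) and Ppat (0.07, adjusted p = 0.376) were not called. The sign of Prps2 turned after quantile normalization only (-0.06). That of Ppat turned there (-0.03) and with TMM and median ratio factors (-0.05 each). With the trend on transcript length and GC content removed, Prps2 was called higher (0.37, adjusted p = 0.00387).

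Gart and Pfas fell strongly with CPX and rose by less with the Pcbp1 hairpin. Gart, an enzyme of 3 activities in the early ring steps, had 35.9 and 36.9 RPM with CPX, against 307 and 322 RPM with DMSO (-3.09, SE 0.20, adjusted p = 0.00241, limma). It had 269 and 265 RPM with the Pcbp1 hairpin, against 142 and 159 RPM with the scrambled hairpin (0.83, SE 0.07, adjusted p = 5.53e-05). Pfas, which adds an amide nitrogen from glutamine, had 6.51 and 13.4 RPM with CPX, against 185 and 176 RPM with DMSO (-4.19, SE 0.38, adjusted p = 0.00246). The CPX replicates of Pfas differed widely from each other, yet both were far under DMSO. In the hairpin experiment Pfas had 223 and 233 RPM with the Pcbp1 hairpin, against 112 and 123 RPM with the scrambled hairpin (0.95, SE 0.07, adjusted p = 2.75e-05). Over the 14 alternatives tried, the hairpin effects ran down to 0.61 for Gart and 0.48 for Pfas. The difference between the hairpin and CPX effects was 3.92 for Gart (SE 0.17, adjusted p = 5.80e-05) and 5.15 for Pfas (SE 0.41, adjusted p = 1.27e-04) on the log2 scale.

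The later steps to IMP were less even. Paics, which carries out the next 2 reactions, had 111 and 90.9 RPM with CPX, against 154 and 153 RPM with DMSO, and did not pass (-0.61, SE 0.21, adjusted p = 0.0623). Its start site lies beside that of Ppat on the opposite strand, and the Ppat to Paics ratio was 0.520 and 0.703 with CPX, against 1.34 and 1.3 with DMSO. The ratio was thus lower in both CPX libraries, although 2 libraries against 2 allow no exact permutation p under 0.333 (two-sided), the value for this ratio. Adsl, which acts both on the way to IMP and on the way to AMP, had 40.7 and 37.2 RPM with CPX, against 228 RPM in each DMSO library (-2.54, SE 0.21, adjusted p = 0.00241, limma). Atic, which closes the ring, had 65.8 and 41.3 RPM with CPX, against 119 and 142 RPM with DMSO (-1.31, SE 0.30, adjusted p = 0.0177). Atic had 112 and 126 RPM with the Pcbp1 hairpin, against 76.6 and 80.6 RPM with the scrambled hairpin (0.59, SE 0.08, adjusted p = 4.51e-04). So of the 3, Atic rose with the hairpin. Adsl had 218 and 215 RPM with the Pcbp1 hairpin, against 195 and 197 RPM with the scrambled hairpin, without passing (0.15, adjusted p = 0.0612). Paics had 248 and 258 RPM with the Pcbp1 hairpin, against 292 and 274 RPM with the scrambled hairpin (-0.16, adjusted p = 0.0578), and passed as lower under TMM factors (-0.28, adjusted p = 0.00818).

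The branches beyond IMP differed from one another. Impdh1, an isoform of the enzyme that starts the guanine branch, had 52.3 and 57.5 RPM with the Pcbp1 hairpin, against 13.3 and 13.1 RPM with the scrambled hairpin (2.01, SE 0.10, adjusted p = 6.96e-06, limma), the largest hairpin effect in the set. With CPX it had 40.5 and 37.3 RPM, against 138 and 142 RPM with DMSO (-1.84, SE 0.21, adjusted p = 0.00319). Impdh2, the isoform known to be induced in dividing lymphocytes, had 73.9 and 78.0 RPM with the Pcbp1 hairpin, against 29.3 and 32.7 RPM with the scrambled hairpin (1.28, SE 0.09, adjusted p = 2.04e-05). Both isoforms therefore rose with the hairpin. With CPX Impdh2 had 256 and 298 RPM, against 320.5 and 324 RPM with DMSO (-0.22, SE 0.19, adjusted p = 0.377). The Impdh1 to Impdh2 ratio was 0.158 and 0.125 with CPX, against 0.431 and 0.439 with DMSO, and 0.708 and 0.737 with the Pcbp1 hairpin, against 0.453 and 0.402 with the scrambled hairpin (exact permutation p = 0.333 for each, the smallest possible).

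Gmps, which completes GMP, had 74.3 and 82.6 RPM with CPX, against 191 and 169.6 RPM with DMSO (-1.19, SE 0.21, adjusted p = 0.00816, limma). It had 232 and 227 RPM with the Pcbp1 hairpin, against 276 and 275 RPM with the scrambled hairpin, a small fall (-0.27, SE 0.06, adjusted p = 0.00523). Adss, which opens the adenine branch, had 254 RPM in each Pcbp1 hairpin library, against 292 and 307 RPM with the scrambled hairpin (-0.24, SE 0.06, adjusted p = 0.0106). Its direction turned when the trend on transcript length and GC content was removed (0.10, adjusted p = 0.23), and the call was lost without scrambled hairpin replicate 2 (-0.20, adjusted p = 0.0615). With CPX Adss had 396 and 344 RPM, against 283 and 279 RPM with DMSO, without passing (0.39, SE 0.19, adjusted p = 0.141). Adss was thus the only purine gene of the 12 with a CPX value above DMSO. In all, 9 of the 12 purine genes fell with CPX (24.8% of all genes tested) and 3 did not pass. With the hairpin 6 rose (34.6% of all genes tested), 2 fell (21.6%) and 4 did not pass.

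**Figure D3:**
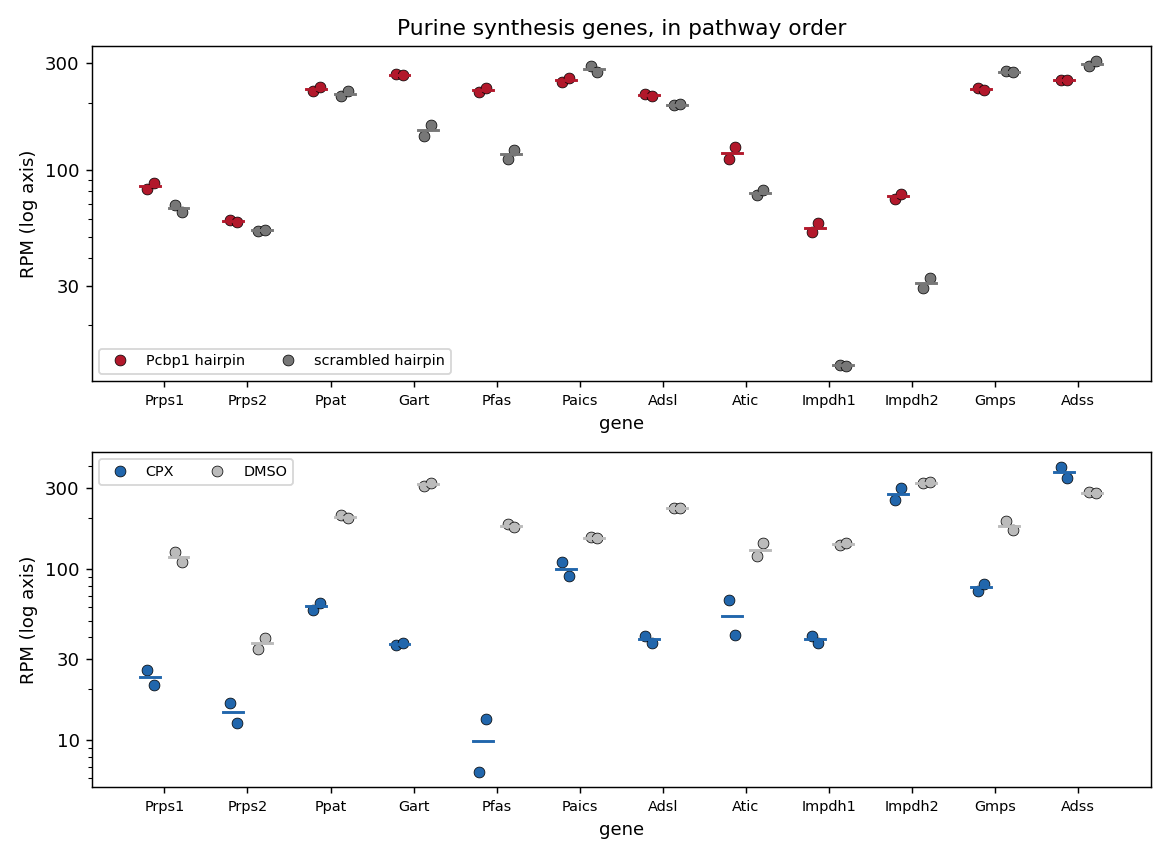
RPM of the 12 purine synthesis genes in each of the 8 libraries on a log axis, with Pcbp1 hairpin left of scrambled hairpin and CPX left of DMSO; points are libraries and bars are means of 2. The CPX points lie under the DMSO points for 11 genes and above them for Adss, and Impdh1, Impdh2, Pfas and Gart stand higher with the Pcbp1 hairpin. The CPX and DMSO groups did not overlap for 76.3% of all genes tested, and Paics, Impdh2 and Adss did not pass with CPX.

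Pyrimidine synthesis held the deepest fall of the set. Cad, a single protein that carries out the opening reactions of the pathway, had 12.7 and 18.9 RPM with CPX, against 469 and 477 RPM with DMSO (-4.89, SE 0.26, limma adjusted p = 0.00241), a 29.6-fold fall. It had 246 and 239 RPM with the Pcbp1 hairpin, against 141 and 155 RPM with the scrambled hairpin (0.71, SE 0.07, adjusted p = 9.26e-05). This rise was lost once the trend on transcript length and GC content was removed (0.12, adjusted p = 0.15). Dhodh, the mitochondrial inner membrane enzyme that makes orotate, had 2.14 and 2.65 RPM with CPX, against 39.1 and 41.2 RPM with DMSO (-3.82, SE 0.31, adjusted p = 0.00241). It had 30.9 and 31.7 RPM with the Pcbp1 hairpin, against 19.2 and 21.6 RPM with the scrambled hairpin (0.61, SE 0.10, adjusted p = 0.00163). Cad and Dhodh thus showed the same opposed pattern as Gart and Pfas. Umps, which turns orotate into UMP, had 65.3 and 59.7 RPM with CPX, against 222 and 189 RPM with DMSO (-1.70, SE 0.21, adjusted p = 0.0037). Umps had 152 and 177 RPM with the Pcbp1 hairpin, against 122 and 129 RPM with the scrambled hairpin (0.39, SE 0.08, adjusted p = 0.00588).

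The paralogs that amidate UTP to CTP parted. Ctps had 80.6 and 42.9 RPM with CPX, against 384 and 306 RPM with DMSO (-2.53, SE 0.34, adjusted p = 0.00437, limma). Ctps2 had 17.9 and 13.4 RPM with CPX, against 5.09 and 11.8 RPM with DMSO, without passing (0.95, SE 0.46, adjusted p = 0.147). The 2 DMSO libraries of Ctps2 lay more than 2-fold apart. The Ctps to Ctps2 ratio was 4.51 and 3.20 with CPX, against 75.4 and 26 with DMSO (exact permutation p = 0.333, the smallest possible). In the hairpin experiment Ctps had 338 and 326 RPM with the Pcbp1 hairpin, against 319.8 and 316 RPM with the scrambled hairpin (0.06, adjusted p = 0.392). Ctps2 fell there, with 6.64 and 5.17 RPM with the Pcbp1 hairpin, against 9.74 and 9.64 RPM with the scrambled hairpin (-0.68, SE 0.17, adjusted p = 0.0107), but not without Pcbp1 hairpin replicate 2 (-0.51, adjusted p = 0.0535).

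The enzymes of thymidylate and dUTP did not pass with CPX. Tyms, which methylates dUMP, had 19.3 and 10.4 RPM with CPX, against 13.7 and 19.5 RPM with DMSO, and the groups overlapped (-0.19, SE 0.41, limma adjusted p = 0.722). Dtymk, the kinase that follows it, had 29.0 and 17.4 RPM with CPX, against 40.3 and 47.1 RPM with DMSO (-0.94, SE 0.33, adjusted p = 0.0667). Dut, which breaks down dUTP, had 45.8 and 42.9 RPM with CPX, against 57.2 and 74.2 RPM with DMSO (-0.55, SE 0.25, adjusted p = 0.122). For Dtymk and Dut both CPX libraries lay under both DMSO libraries without reaching the threshold. The CPX and DMSO groups did not overlap for 76.3% of all genes tested. Tyms had 9.67 and 8.53 RPM with the Pcbp1 hairpin, against 17 and 12.8 RPM with the scrambled hairpin (-0.67, SE 0.17, adjusted p = 0.0103). Dtymk had 40.3 and 38.6 RPM with the Pcbp1 hairpin, against 52.2 and 53.5 RPM with the scrambled hairpin (-0.42, SE 0.08, adjusted p = 0.00262). Both fell, but the Tyms call was lost without scrambled hairpin replicate 1 (-0.48, adjusted p = 0.0543) and the Dtymk call after removal of the length and GC trend (-0.10, adjusted p = 0.332). Dut had 59.9 and 51.5 RPM with the Pcbp1 hairpin, against 55.4 and 54.3 RPM with the scrambled hairpin (0.02, adjusted p = 0.869).

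In one-carbon metabolism the cytosolic genes fell with CPX, while no fall passed the test for the mitochondrial genes. Mthfd1, the cytosolic enzyme that supplies formyl folate to purine synthesis, had 16.2 and 14.3 RPM with CPX, against 210.4 and 216 RPM with DMSO (-3.77, SE 0.22, limma adjusted p = 0.00241). With the Pcbp1 hairpin it had 217 and 222 RPM, against 53.9 and 58.6 RPM with the scrambled hairpin (1.96, SE 0.07, adjusted p = 3.21e-06). Mthfd1 had the widest gap of the 32 between its effects, 5.72 on the log2 scale (SE 0.18, adjusted p = 5.11e-05). Shmt1, the cytosolic serine hydroxymethyltransferase, had 61.9 and 41.6 RPM with CPX, against 301 and 275 RPM with DMSO (-2.49, SE 0.26, adjusted p = 0.00289). It had 257 and 265 RPM with the Pcbp1 hairpin, against 258 and 282 RPM with the scrambled hairpin (-0.05, adjusted p = 0.566). So the cytosolic pair fell together with CPX, and Mthfd1 alone of the pair rose with the hairpin.

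The mitochondrial enzymes gave other values. Shmt2, which splits serine in mitochondria, had 449 and 475 RPM with CPX, against 493 and 469.6 RPM with DMSO (-0.06, SE 0.18, limma adjusted p = 0.807). Mthfd2, the folate dehydrogenase known to be induced in activated T cells, had 244 and 339.8 RPM with CPX, against 336 and 278 RPM with DMSO (-0.09, SE 0.24, adjusted p = 0.793). Mthfd1l, which releases formate, had 162 and 108 RPM with CPX, against 127 and 119 RPM with DMSO (0.11, SE 0.26, adjusted p = 0.766). The groups overlapped for all 3. The Shmt1 to Shmt2 ratio was 0.138 and 0.0876 with CPX, against 0.609 and 0.586 with DMSO, and the Mthfd1 to Mthfd1l ratio was 0.0995 and 0.133 with CPX, against 1.66 and 1.82 with DMSO. Both ratios were lower in each CPX library than in either DMSO library (exact permutation p = 0.333 for each, the smallest possible). With the Pcbp1 hairpin Mthfd1l rose, with 126 RPM in each library against 92.6 and 101 RPM with the scrambled hairpin (0.37, SE 0.07, adjusted p = 0.00269), but not after removal of the length and GC trend (0.17, adjusted p = 0.0716). Shmt2 had 135 and 114 RPM with the Pcbp1 hairpin, against 136 and 127 RPM with the scrambled hairpin (-0.09, adjusted p = 0.45). Mthfd2 had 175 and 142 RPM with the Pcbp1 hairpin, against 139 and 124 RPM with the scrambled hairpin (0.26, adjusted p = 0.0698). It passed as higher without Pcbp1 hairpin replicate 2 (0.42, adjusted p = 8.11e-04), without scrambled hairpin replicate 1 (0.35, adjusted p = 0.0106) and with the length and GC trend removed (0.34, adjusted p = 0.0318).

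**Figure D4:**
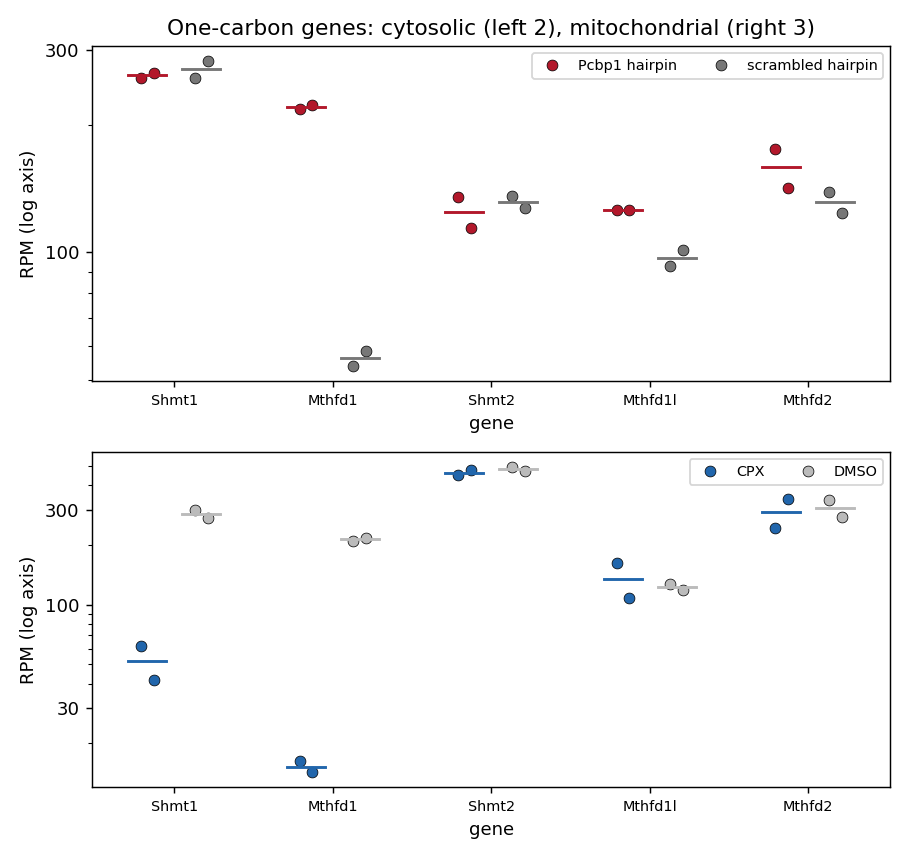
RPM of the cytosolic one-carbon genes Shmt1 and Mthfd1 and the mitochondrial genes Shmt2, Mthfd1l and Mthfd2 in each library on a log axis, with Pcbp1 hairpin left of scrambled hairpin and CPX left of DMSO. CPX points are low for the cytosolic genes (14.3 to 61.9 RPM, against 210.4 to 301 RPM with DMSO) and overlap DMSO for the mitochondrial genes.

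Salvage enzymes were mixed. Uck2, the kinase that recovers uridine and cytidine, had 40.6 and 28.0 RPM with CPX, against 277 and 284 RPM with DMSO (-3.04, SE 0.26, limma adjusted p = 0.00241). Aprt, which recovers adenine, had 40.2 and 36.2 RPM with CPX, against 84.7 and 95.3 RPM with DMSO (-1.23, SE 0.23, adjusted p = 0.0098). Hprt, which recovers hypoxanthine and guanine, had 97.6 and 93.1 RPM with CPX, against 129 and 132 RPM with DMSO, without passing (-0.45, SE 0.20, adjusted p = 0.115). Uck2 and Aprt thus fell. Both Hprt values with CPX were also under DMSO, but the groups did not overlap for 76.3% of all genes tested. Uck2 had 190.4 and 208 RPM with the Pcbp1 hairpin, against 151 and 165 RPM with the scrambled hairpin (0.34, SE 0.07, adjusted p = 0.00601). Hprt had 115 and 114 RPM with the Pcbp1 hairpin, against 95.2 and 87.1 RPM with the scrambled hairpin (0.33, SE 0.07, adjusted p = 0.00534). Both rose, but Uck2 turned after removal of the length and GC trend (-0.05, adjusted p = 0.606) and Hprt was lost after quantile normalization (0.16, adjusted p = 0.0886). Aprt had 118 and 106 RPM with the Pcbp1 hairpin, against 101 and 100 RPM with the scrambled hairpin (0.15, adjusted p = 0.109).

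The deoxynucleoside kinases were scarce. Tk1, the S phase thymidine kinase, had 14.2 and 9.77 RPM with CPX, against 3.71 and 11.4 RPM with DMSO (0.80, SE 0.56, limma adjusted p = 0.286), and 9.34 and 7.06 RPM with the Pcbp1 hairpin, against 7.90 and 5.66 RPM with the scrambled hairpin (0.26, adjusted p = 0.324). Dck, the deoxycytidine kinase, had 10.7 and 24.7 RPM with CPX, against 8.75 and 13.0 RPM with DMSO (0.59, SE 0.48, adjusted p = 0.353), and 7.99 and 6.01 RPM with the Pcbp1 hairpin, against 6.42 and 5.66 RPM with the scrambled hairpin (0.19, adjusted p = 0.424). The groups overlapped in all 4 cases, and at these levels the spread between replicates left small changes undetectable.

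The nucleoside diphosphate kinases Nme1 and Nme2, which pass phosphate from ATP to the other nucleotides, are neighbouring genes of closely similar sequence, so the split of reads between them is uncertain. Nme1 had 23.9 and 13.6 RPM with CPX, against 37.1 and 41.3 RPM with DMSO (-1.10, SE 0.35, limma adjusted p = 0.0497). Nme2 had 350.1 and 278 RPM with CPX, against 532 and 474 RPM with DMSO (-0.69, SE 0.21, adjusted p = 0.0438). Both CPX calls lay at the threshold and were lost under several other settings. With the Pcbp1 hairpin both fell, and were called under all 14 alternatives tried. Nme1 had 118 and 125 RPM with the Pcbp1 hairpin, against 159 and 167 RPM with the scrambled hairpin (-0.42, SE 0.06, adjusted p = 0.00104). Nme2 had 429 and 363 RPM with the Pcbp1 hairpin, against 563 and 556 RPM with the scrambled hairpin (-0.50, SE 0.08, adjusted p = 0.00151).

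Divided by the length of each gene's longest transcript (GENCODE vM21), the levels of the set spanned a wide range. The order of genes depends on that choice of transcript. Mean levels ran up to 310.1 RPM per kilobase with CPX and 497 RPM per kilobase with DMSO for Nme2, the highest of the 32 in every group. Shmt2 came next in the drug experiment, with 202 RPM per kilobase with CPX and 210.4 RPM per kilobase with DMSO. The lowest level with CPX was that of Dhodh, 0.629 RPM per kilobase, against 10.5 RPM per kilobase with DMSO, and the next lowest was that of Pfas, 1.56 RPM per kilobase, against 28.3 RPM per kilobase with DMSO. The lowest in the hairpin libraries was Ctps2 with the Pcbp1 hairpin, 1.76 RPM per kilobase, against 2.89 RPM per kilobase with the scrambled hairpin.

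The calls were set beside the authors' deposited tables, which tested the same libraries. In the authors' deposited table for the hairpin, 10 of the 32 genes were higher, 8 lower and 14 not passed, where 43.6% of 11443 genes were called, 23.5% higher and 20.1% lower. The authors' deposited table did not call Prps1, Hprt and Uck2, which passed as higher here, and called Paics lower. In the authors' deposited table for CPX, 18 of the 32 were lower and 14 not passed, where 41.3% of 15791 genes were called, 19.2% lower and 22.1% higher. Nme2, lower here, did not pass in the authors' deposited table.

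Enzymes around the set were counted from a list of 56. With CPX 43 were tested, of which 5 rose and 17 fell (limma, against 19.9% and 24.8% of all genes), with a median log2 fold change of -0.11. With the hairpin 44 were tested, of which 11 rose and 15 fell (against 34.6% and 21.6% of all genes), with a median of -0.06. Ribonucleotide reductase, whose small subunit holds iron, makes the deoxynucleotides. Its large subunit Rrm1 had 42.8 and 25.8 RPM with CPX, against 113 and 156 RPM with DMSO (-1.98, SE 0.33, adjusted p = 0.00742), and 81.6 and 56.4 RPM with the Pcbp1 hairpin, against 78.0 and 58.9 RPM with the scrambled hairpin (0.00, SE 0.18, adjusted p = 0.993). The small subunit Rrm2 had 18.8 and 15.1 RPM with CPX, against 51.5 and 68.7 RPM with DMSO (-1.79, SE 0.29, adjusted p = 0.00665), and 20.1 and 14.3 RPM with the Pcbp1 hairpin, against 12 and 11.5 RPM with the scrambled hairpin (0.52, SE 0.17, adjusted p = 0.0327). Both subunits fell with CPX. The p53-induced small subunit Rrm2b had 11.8 and 20.5 RPM with CPX, against 24.8 and 20.4 RPM with DMSO (-0.52, adjusted p = 0.287), and 21.3 and 19.9 RPM with the Pcbp1 hairpin, against 15.5 and 13.2 RPM with the scrambled hairpin (0.51, SE 0.12, adjusted p = 0.0101).

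Among folate and serine genes, the carriers moved with most of the set under CPX. The reduced folate carrier Slc19a1 had 36.7 and 25.0 RPM with CPX, against 297 and 258 RPM with DMSO (-3.17, SE 0.27, limma adjusted p = 0.00241). It had 109 and 105 RPM with the Pcbp1 hairpin, against 125 and 132 RPM with the scrambled hairpin (-0.26, SE 0.07, adjusted p = 0.0104). Slc19a1 thus fell in both experiments. With CPX the mitochondrial folate carrier Slc25a32 (-2.19, adjusted p = 0.00307) and the folate polyglutamate synthase Fpgs (-2.63, adjusted p = 0.00497) also fell. With the hairpin the methionine synthase Mtr rose (1.09, adjusted p = 1.22e-04), and the phosphoserine phosphatase Psph (-1.15, adjusted p = 2.40e-05) and Slc25a32 (-0.58) fell.

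Of the other kinases and partners, Prpsap1, which binds the PRPP synthetases, had 55.1 and 55.7 RPM with the Pcbp1 hairpin, against 11.7 and 10.5 RPM with the scrambled hairpin (2.27, SE 0.10, limma adjusted p = 5.61e-06). It had 16.3 and 21.4 RPM with CPX, against 72.6 and 75.3 RPM with DMSO (-1.96, SE 0.26, adjusted p = 0.00423). Prpsap1 was therefore called in the same directions as Prps1, up with the hairpin and down with CPX. The hairpin rise of Prps1 was much smaller (0.33) and was not called after quantile normalization (0.14). Also with the hairpin, the adenylate kinase family member Ak4 rose (0.93), and the UMP/CMP kinase Cmpk1 (-0.88) and Prpsap2 (-0.46) fell. With CPX the guanylate kinase Guk1 (-1.99) and Nme6 (-1.94) fell, and Adssl1, the muscle-type paralog of Adss, rose (3.41, adjusted p = 0.00242), with 10.5 and 11.6 RPM with CPX, against 0.559 and 0.614 RPM with DMSO. Among genes of breakdown and interconversion, Dctd, which deaminates dCMP to dUMP, had 1.3 and 0.780 RPM with CPX, against 23.1 and 25.3 RPM with DMSO (-4.02, SE 0.34, adjusted p = 0.00241). The AMP deaminase Ampd2 fell with CPX (-2.23) and rose with the hairpin (1.12). The nucleotidase Nt5c fell in both (-1.52 with CPX, -0.80 with the hairpin), the ecto-nucleotidase Nt5e rose with CPX (2.47), and Nt5c2 rose (1.09) and the adenosine deaminase Ada fell (-1.15) with the hairpin.

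Cell cycle genes and 2 regulators gave a setting for these values. Of 16 genes of S phase and the cell cycle, 6 fell and 0 rose with CPX (limma; 24.8% and 19.9% of all genes), with a median of -0.39. With the hairpin 4 rose and 5 fell (34.6% and 21.6% of all genes), with a median of -0.11. Their part in the results was not tested. Myc, a transcription factor known to drive nucleotide synthesis in activated T cells, had 56.9 and 45 RPM with CPX, against 1552 and 1263 RPM with DMSO (-4.78, SE 0.23, adjusted p = 0.00241). With the Pcbp1 hairpin Myc had 781 and 917 RPM, against 364 and 449 RPM with the scrambled hairpin (1.06, SE 0.11, adjusted p = 1.58e-04). Myc thus fell with CPX and rose with the hairpin. The part of Myc and of Atf4, the other regulator, in the results was not tested. Atf4, which drives serine and mitochondrial folate genes under amino acid shortage, had 382 and 645 RPM with CPX, against 481 and 378 RPM with DMSO (0.22, SE 0.30, adjusted p = 0.585), and 424 and 327 RPM with the Pcbp1 hairpin, against 546 and 477 RPM with the scrambled hairpin (-0.45, SE 0.12, adjusted p = 0.015).

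Promoters of the set were searched for the E-box CACGTG, the site bound by MYC and related factors, and for TGATGNAA, the element bound by ATF4, on both strands. Promoters of RefSeq genes (GRCm38.p6) were found for 30 of the 32 genes, all but Pfas and Dhodh. They gave 36 windows of 300 bases, since some genes have several starts. Each window spans a start and lies mostly upstream of it, and sites outside the windows were not counted. The E-box was present in 7 of the 36 windows (19.4%), against 7.15% of 32851 mouse promoters. By gene, 6 of 30 (20.0%) had it, against 8.09% of 27025. The mouse promoters were not limited to genes tested here. TGATGNAA was in 1 window (2.78%), that of Prps1, against 3.97% of the mouse promoters. The 6 genes with an E-box were Atic, Dtymk, Impdh2, Nme1, Paics and Tyms. Of the 6, 2 fell with CPX, with a median CPX effect of -0.77, and of the 24 genes without one in these windows 15 fell, with a median of -1.27. With the hairpin 2 of the 6 and 9 of the 24 rose. The presence of these letters was not tested as a cause of either change. For 4 of the 7 windows, 80 bases around the E-box are shown, lower case with the E-box in capitals, in the direction of transcription. They belong to the purine gene Atic (chr1:71557076-71557155, plus strand), which moved in both experiments; Impdh2 (chr9:108560289-108560368, plus strand), which rose with the hairpin; Tyms (chr5:30073644-30073723, minus strand), which fell with the hairpin; and the upstream start of Nme1 (chr11:93968273-93968352, minus strand).
Atic: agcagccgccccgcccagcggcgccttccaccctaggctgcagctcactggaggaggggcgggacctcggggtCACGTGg
Impdh2: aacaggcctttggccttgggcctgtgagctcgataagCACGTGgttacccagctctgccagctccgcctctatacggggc
Tyms: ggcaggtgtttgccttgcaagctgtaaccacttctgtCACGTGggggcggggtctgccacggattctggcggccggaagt
Nme1: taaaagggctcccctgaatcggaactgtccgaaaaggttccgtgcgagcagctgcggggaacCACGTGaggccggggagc
All 4 E-boxes lie upstream of the annotated start, beginning at position -7 for Atic and -18 for this Nme1 start. Atic and Nme1 moved in opposite directions with the hairpin (0.59 and -0.42) and both fell with CPX.

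How far the calls held across libraries differed between the experiments. With CPX, 13 of the 19 genes were called under all 14 alternatives tried, among them Cad, Pfas, Dhodh, Gart, Mthfd1, Uck2 and Shmt1. Without either DMSO library, 13 genes were called lower, and Prps2, Atic, Gmps, Aprt, Nme1 and Nme2 were lost. The CPX replicates were the least alike, with 15.5% of all genes tested over 2-fold apart, against 4.57% between the DMSO replicates, and among the 32 genes 1 was so far apart with CPX and 2 with DMSO. With the hairpin, 10 of the 20 genes were called under all 14 alternatives: Gart, Pfas, Atic, Impdh1, Impdh2, Dhodh, Umps and Mthfd1 as higher, and Nme1 and Nme2 as lower.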

How the data were processed

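Per the submitters' processing notes, reads were handled with STAR, HTSeq, cutadapt and DESeq on build mm9; versions are not given. The authors deposited whole-number values per gene and library under the name RPM, and these are treated as a score. The spacing of their rounding shows, in 5 of the 8 libraries, read counts rescaled by a factor per library (1.287 to 2.165 reads per unit), so count tests were not used and limma, the fallback of the design, was. Per the file headers, the authors' tables hold a mean signal (normalized counts), log2 fold changes with errors, a Wald score, p-values and Benjamini-Hochberg adjusted values. Labels after a constant line (23487630) were displaced, so lines with a value of at least 10 were matched to genes by the mean signal in both tables: of 14805 lines, 14455 matched 1 gene, 350 several and 0 none, and 7246 of 7247 lines after the constant carried another gene's label. All 32 genes matched uniquely.

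RPM was recomputed as value over library total times 1e+06. A gene entered a test if 2 or more of the 4 libraries reached 1 RPM (for the difference, in both experiments), and was tested with limma 3.58.1 (trended variance, R 4.3.3) on log2(RPM + 0.5), which understates changes of low genes. Intervals for single values were not computed, since whole reads could not be recovered for every library; read depth is therefore known only from the rescaled totals. The scripts were tested on simulated data. Named neighbours are the 4 per group with the smallest p in each comparison; 1 neighbour and 1 marker of those counted are not reported here. Members and lists were chosen with earlier results of these data known. The alternatives were other pseudocounts (0.1 and 2), filters (5 RPM or none), quantile normalization, TMM and median ratio factors, no variance trend, removal of a trend on transcript length and GC content (known for 96.9% of genes), a replicate block, and leaving out each library. Deviations of libraries with the same replicate number correlated at 0.289 in the hairpin and 0.101 in the CPX experiment, over 2 pairs each.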

Additional observations from a re-analysis of the deposited data

How the results depend on the processing

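The planned count tests could not be run because the deposited values are not counts, and the limma alternative without TMM scaling is the fit reported. For the hairpin, the pseudocounts, TMM factors and the fit without a variance trend were chosen after seeing the data, as were the fit without a trend for the difference and median ratio factors throughout. Over all genes, the CPX experiment gave 2535 to 5512 calls (1277 to 1890 higher, 1226 to 3745 lower) when 1 library was left out, with 2535 and 2785 without DMSO replicate 1 and 2, against 5124 with all. A lone DMSO or CPX library was then assumed to vary like the other group. Among the 32 genes, 13 to 21 were lower with CPX when 1 library was left out and 0 to 1 higher. The 1 was Adss, without CPX replicate 2 (0.49), and it was also called with the length and GC trend removed (0.66). For the difference, 1046 to 2154 of all genes were lower when 1 library was left out (1046, 1051 and 1085 without Pcbp1 hairpin replicate 2, scrambled hairpin replicate 1 and scrambled hairpin replicate 2) and 2580 after quantile normalization, against 1675. Among the 32 genes, 0 to 2 were lower and 19 to 23 higher when 1 library was left out, and 18 were higher after quantile normalization. With the replicate block 1 gene was lower, against 2 without it. In the hairpin experiment the counts of the 32 were 15 higher and 8 lower with the replicate block (adding Mthfd2, adjusted p = 0.00182, and Adsl, 0.0423, as higher and Paics, 0.0292, as lower), 19 to 21 called when 1 library was left out, and 18 with the length and GC trend removed; with CPX the block gave 19 lower. The labels do not say whether the numbers pair the libraries. Cd8a had 67.1 and 63.8 RPM in replicate 1 with the Pcbp1 and scrambled hairpins, against 6.92 and 6.49 RPM in replicate 2. Over all genes, the block gave 7403 calls in the hairpin experiment, against 6505 without it.

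The genes whose direction reversed did so mostly at small values, and the cause was not tested. In the hairpin experiment, quantile normalization gave -0.06 for Prps2, -0.03 for Ppat, -0.04 for Ctps, -0.18 for Dut and -0.01 for Aprt. TMM factors gave -0.05 for Ppat, -0.06 for Ctps and -0.10 for Dut, and median ratio factors gave -0.05 for Ppat, -0.05 for Ctps and -0.10 for Dut. Removing the length and GC trend gave -0.02 for Adsl, 0.10 for Adss and -0.05 for Uck2. With CPX, Tyms was at 0.16 after quantile normalization and Shmt2 at 0.03 with median ratio factors. Mthfd2 was at 0.03 with the length and GC trend removed, and 0.00 with median ratio factors. For the difference, quantile normalization gave -0.05 for Dtymk and -0.05 for Mthfd1l, and median ratio factors gave -0.02 for Nme2. Over the leave-one-out fits of those genes that turned in at least 1, the hairpin values ran from -0.09 to 0.13 for Dut, -0.11 to 0.01 for Shmt1, -0.21 to 0.04 for Shmt2 and -0.00 to 0.38 for Dck. The CPX values ran from -0.62 to 0.23 for Tyms, -0.19 to 0.40 for Mthfd1l and -0.32 to 0.15 for Mthfd2. The difference ran from -0.15 to 0.10 for Shmt2, -0.03 to 0.56 for Mthfd1l, -0.98 to 0.18 for Dck and -1.28 to 0.21 for Tk1.

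Without CPX replicate 1, Paics (-0.75, adjusted p = 0.018) and Dtymk (-1.30, adjusted p = 0.0135) were called lower with CPX. For the hairpin, removing the length and GC trend also called Prps2 (0.37) and Aprt (0.32) higher, and Aprt (0.23) passed without Pcbp1 hairpin replicate 2. Dck, Tk1, Tyms and Ctps2 stood under 25 RPM in every library, and the precision of low values is limited by depth, which is known only from rescaled totals. With 2 libraries a group, a p that misses the threshold does not show that values were equal.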

Other observations

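Pcbp1 itself was lower with CPX. It had 238 and 199 RPM with CPX, against 506 and 538 RPM with DMSO (log2 fold change -1.26, SE 0.20, limma adjusted p = 0.00613), beside -1.59 with the hairpin, and the difference between the effects did not pass (-0.32, SE 0.21, adjusted p = 0.229).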
